A study of Mus musculus with 2 samples.

Results

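The genes described here are 10 transcription factor genes of limb mesenchyme and of limb type, chosen by symbol: *Prrx1*, *Prrx2*, *Twist1*, *Twist2*, *Shox2*, *Meis1*, *Meis2*, *Pitx1*, *Tbx4* and *Tbx5*. All 10 were among the 23628 genes listed for each library. They were measured by RNA-sequencing in 2 libraries of 1 condition, Sox9GFPHi chondrospheres, called the first and the second library (replicate 1 and replicate 2 in the plots). Chondrospheres are 3D colonies grown from single cells, here from the femoral heads of pups at postnatal day 7. The pups were homozygous for the Sox9-IRES-EGFP allele, which reports transcription of *Sox9*. Both libraries came from live GFP-high cells, negative for the endothelial and blood cell markers CD31, Ter119 and CD45, that were cultured in methylcellulose under low oxygen with FGF2, BMP4, IGF1, LIF and TGF-β1. The study harvested each pup separately, but the labels do not say whether the 2 libraries come from separate pups, so the spread between them may be technical. A library of freshly isolated femoral head cells or of forelimb cartilage was not analysed here, so the levels cannot be set against those before culture or in another limb.

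As background, limb buds are patterned by transcription factors that remain active in part in the skeletal cells that descend from them. *Tbx4* and *Pitx1* are transcribed in the hindlimb bud, with *Pitx1* acting upstream of *Tbx4*, and *Tbx5* is transcribed in the forelimb bud. *Prrx1*, *Prrx2*, *Twist1* and *Twist2* mark undifferentiated mesenchyme, whereas *Meis1*, *Meis2* and *Shox2* act in the proximal part of the limb, where the femur and humerus form.

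Levels are reads per 1000000 reads on genes (CPM) after subtraction of an offset of 0.0001 CPM that every deposited value carried. One read was worth 0.0231 CPM in the first library and 0.0237 CPM in the second, from the steps between low values, so about 43300000 and 42200000 reads lay on genes. The detection floor used here, 3 reads, corresponds to 0.0693 and 0.0712 CPM. Of the 20 values of the 10 genes, 16 were whole numbers of reads within 0.05 reads. All 8 chondrocyte markers examined, among them *Col2a1*, *Acan* and *Sox9*, were at 1 CPM or more in both libraries, with sums of 187000 and 130000 CPM, while 4 of the 5 endothelial markers (*Cdh5*, *Kdr*, *Emcn* and *Tie1*) were listed at 0 in both and the fifth, *Pecam1*, had 0.231 and 0.166 CPM. In bulk RNA, fewer cells of a type and less RNA per cell cannot be told apart.

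Of the 10 genes, 9 were at or above 3 reads in both libraries, and 68.5% of all genes listed were. At least 1 CPM in both libraries was reached by 7 of them, against 50.3% of all genes. The 7 were *Shox2*, *Prrx2*, *Meis2*, *Pitx1*, *Twist1*, *Prrx1* and *Meis1*. *Twist2* and *Tbx4* lay between the floor and 1 CPM, and *Tbx5* was listed at 0. No 50-base sequence, the length of the reads, was shared between transcripts of *Tbx4* and *Tbx5*, of *Prrx1* and *Prrx2*, of *Twist1* and *Twist2*, or of *Meis1* and *Meis2*, so no read that matches exactly could have come from both members of a pair.

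**Figure D1:**
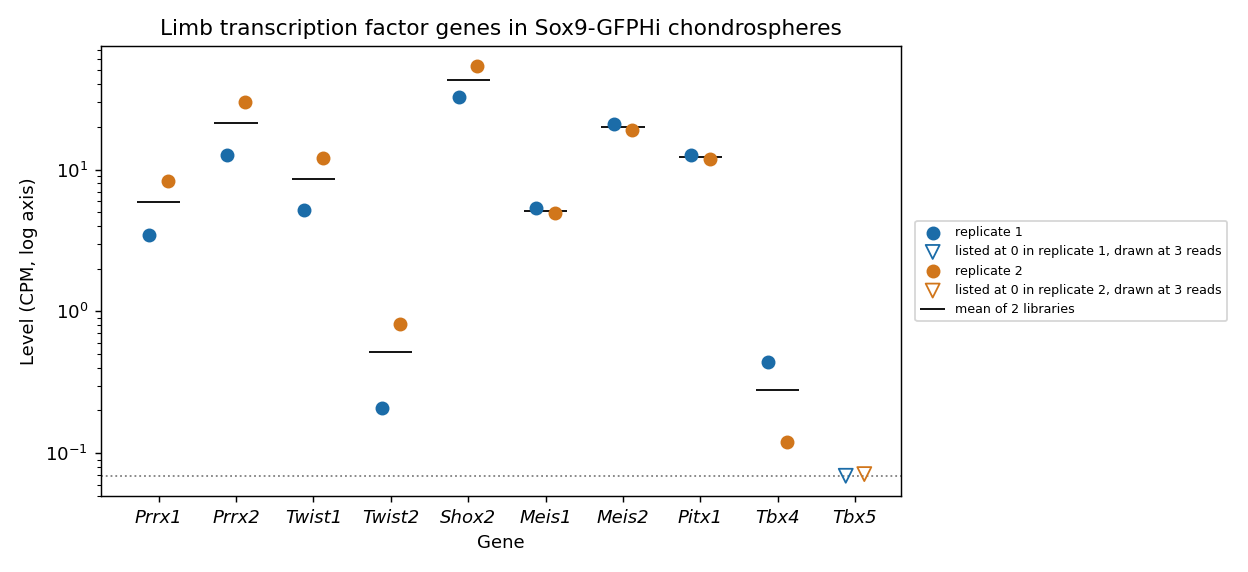
Level of each gene in replicate 1 and replicate 2, in CPM on a log axis, with horizontal bars at the mean of the 2 libraries and a dotted line at 3 reads. *Shox2* lies highest at 32.3 and 53.4 CPM, *Tbx4* has the lowest mean of the detected genes, and *Tbx5*, listed at 0, is drawn as open triangles at 3 reads.

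Of the genes of limb type, the hindlimb gene *Pitx1* was clearly detected, the hindlimb gene *Tbx4* was detected at a trace, and the forelimb gene *Tbx5* was listed at 0 in both libraries. *Pitx1*, which encodes a paired-type homeodomain protein and spans bases 55825051 to 55836192 of chromosome 13 (GRCm38), was at 12.6 CPM in the first library and 11.9 CPM in the second (12.3 ± 0.451 CPM, mean ± SD, n = 2). These levels rest on about 544 and 503 reads and ranked 6731 and 7632 among all genes. The libraries were close to each other for this gene. An antisense transcript, *Gm47071*, shares 165 exonic bases with *Pitx1* and had 0.731 and 1.04 CPM. Whether strand was used in counting is not given in the sources used here, so reads of the overlap could have been counted for either gene. A noncoding RNA gene on the same strand, *Gm28760*, shares 108 exonic bases with *Pitx1* and is not among the genes listed. It holds 2.34% of the 50-base sequences of *Pitx1*, an overlap that strand does not resolve.

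*Tbx4*, which encodes a T-box factor and spans bases 85886422 to 85916097 of chromosome 11, was at 0.439 CPM in the first library and 0.119 CPM in the second. These are 19 and 5 reads. The exact Poisson 95% intervals, which cover counting error only, run from 11.4 to 29.7 reads and from 1.62 to 11.7 reads and overlap narrowly. *Tbx4* was therefore detected in both libraries, close to the limit of the depth in the second library. Per kilobase of annotated exons, *Pitx1* exceeded *Tbx4* 36.7-fold and 129-fold, with a log2 ratio of 6.10 ± 1.28 (SD, n = 2) that is larger than its spread.

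The stretch of 250 bases before the RefSeq start of *Tbx4* is shown because this gene was near the floor while *Pitx1*, known to act upstream of it, was not. It lies at chr11:85896515-85896764 on the plus strand of GRCm38.p6, inside the gene span that GENCODE gives, and capitals mark CANNTG, the E-box bound by basic helix-loop-helix (bHLH) dimers such as those of TWIST proteins. The pattern CANNTG reads the same on both strands, although a single match such as CATCTG need not.
Tbx4: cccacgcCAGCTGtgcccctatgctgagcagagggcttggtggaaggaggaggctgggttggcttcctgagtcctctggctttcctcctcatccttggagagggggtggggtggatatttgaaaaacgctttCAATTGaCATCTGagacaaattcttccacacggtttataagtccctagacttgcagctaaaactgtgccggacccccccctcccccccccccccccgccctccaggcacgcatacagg
The window holds 3 E-boxes, 58.4% G and C bases and 6 CpG dinucleotides. TAATCC, the core letters bound by bicoid-type homeodomains such as that of PITX1, were searched on both strands and were not in it. Among 32851 such windows of all genes, 66.2% held CANNTG and 6.25% held TAATCC, and no window printed here holds both. RefSeq is the source of these windows. These matches describe letters, not binding.

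*Tbx5* (bases 119832668 to 119885219 of chromosome 5), which encodes the forelimb T-box factor, was listed at 0 in both libraries. All 15 widely used genes checked, such as *Actb* and *Tbp*, were above 0. Their lowest level was 15 CPM, so they cannot show how values of 0 arise for genes of low level. Among all genes, 14.6% were listed at 0 in both libraries. A count of 0 was taken to allow up to 3 reads, the floor given above. Against that limit and per kilobase, *Pitx1* was at least 319-fold higher than *Tbx5* in the first library and at least 295-fold higher in the second. *Tbx4* was at least 8.71-fold higher in the first library and at least 2.29-fold higher in the second. The two-sided interval used for *Tbx4* reaches 3.69 reads at a count of 0, and against that the folds are 260 and 240 for *Pitx1* and 7.08 and 1.86 for *Tbx4*. In the second library the interval of *Tbx4* reaches down to 1.62 reads, below the limit for *Tbx5*, so at this depth the order of *Tbx4* and *Tbx5* rests on the first library. The order of *Pitx1* and *Tbx5* was the same in both.

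The *Hoxc* genes that differ between limbs gave a graded picture. *Hoxc10*, a hindlimb gene, had 37.9 and 38.2 CPM, and *Hoxc11*, also of the hindlimb, had 2.29 and 5.31 CPM. *Hoxc4* and *Hoxc5*, which are transcribed in forelimb buds, were present in both libraries, at 3.12 and 5.1 CPM and at 1.12 and 1.67 CPM. Per kilobase, *Hoxc10* exceeded *Hoxc4* 16.3-fold and 10.1-fold, whereas the log2 ratio of *Hoxc11* to *Hoxc4* was 0.15 ± 0.36 (SD, n = 2), within its spread. So the forelimb factor *Tbx5* was listed at 0 while these forelimb *Hoxc* genes were not. The gene span of *Hoxc5* starts at base 102967443 of chromosome 15, inside that of *Hoxc10* (bases 102966796 to 102971893) on the same strand. Reads that *Hoxc5* and *Hoxc10* could share were not examined, so the level of *Hoxc5* is uncertain by them.

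Per kilobase, *Tbx15* and *Tbx18* were above *Tbx4* in both libraries. Of 14 T-box genes besides *Tbx4* and *Tbx5*, 8 were listed and 5 were at or above the floor in both libraries. Among all genes listed, 68.5% were at or above it. *Tbx15*, a gene of limb and skeletal development, had 66.9 and 78.1 CPM and exceeded *Tbx4* per kilobase 138-fold and 597-fold. *Tbx18*, its close relative, had 5.16 and 11.8 CPM. *Tbx3*, which acts in the posterior limb bud, had 0.139 and 9.94 CPM, the widest spread as a ratio among the 4 T-box genes whose mean reached 1 CPM. *Tbx21* and *Tbr1* were listed at 0 in both, and *T* was at 0.555 CPM in the first library and 0 in the second.

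**Figure D2:**
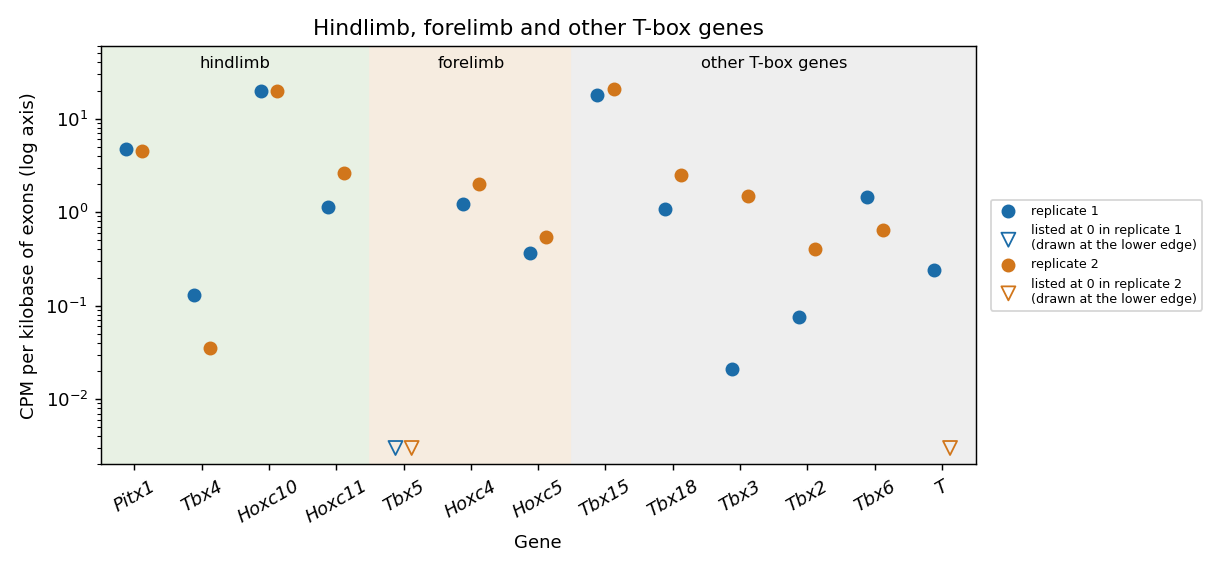
CPM per kilobase of annotated exons, on a log axis, for hindlimb genes, forelimb genes and other T-box genes in replicate 1 and replicate 2, with open triangles at the lower edge for values listed at 0. *Pitx1* and *Hoxc10* lie above the forelimb genes *Hoxc4* and *Hoxc5*, *Tbx4* lies below them, and *Tbx15* is the highest T-box gene shown.

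Among the proximal limb genes, *Shox2* had the highest level, in CPM and per kilobase. It encodes a homeodomain protein needed for growth of the humerus and femur and spans bases 66971727 to 66981771 of chromosome 3. Its level was 32.3 CPM in the first library and 53.4 CPM in the second, or 9.76 and 16.1 CPM per kilobase. *Rsrc1* overlaps it on the opposite strand by 153 exonic bases and had 21.5 and 35.1 CPM, and 3.15% of the 50-base sequences of *Shox2* occur in reverse in *Rsrc1*. The level of *Shox2* is uncertain by the reads of that overlap. Within each library, *Sox9* exceeded *Shox2* per kilobase 6.24-fold and 4.18-fold, and *Shox2* exceeded *Pitx1* 2.06-fold and 3.59-fold. Both ratios were larger than their spread between libraries.

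The window before the start of *Shox2*, at chr3:66981772-66982021 on the minus strand, is shown as that of the highest of the 10 genes in CPM, with no base in capitals because it holds no E-box.
Shox2: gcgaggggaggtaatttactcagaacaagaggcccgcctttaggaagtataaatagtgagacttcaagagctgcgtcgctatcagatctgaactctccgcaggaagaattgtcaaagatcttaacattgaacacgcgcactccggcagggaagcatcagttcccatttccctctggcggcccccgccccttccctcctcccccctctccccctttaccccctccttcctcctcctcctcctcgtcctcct
It holds 55.6% G and C bases, 11 CpG dinucleotides and no TAATCC on either strand.

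*Meis1* and *Meis2* encode homeodomain proteins of the TALE class that bind DNA with PBX partners. *Meis2* (bases 115863064 to 116065839 of chromosome 2) was at 20.9 CPM in the first library and 19.1 CPM in the second. *Meis1* (bases 18879817 to 19018985 of chromosome 11) had 5.32 and 4.96 CPM. For both genes the libraries lay close together, with the second slightly lower. The ratio of *Meis2* to *Meis1* was steady, at 3.44-fold and 3.36-fold per kilobase, or a log2 ratio of 1.77 ± 0.02 (SD, n = 2), and 7.99-fold and 7.81-fold per kilobase of the longest coding transcript. Of the 50-base sequences of *Meis1*, 9.16% also occur in other genes, foremost a provisional gene model, *Gm37818*, with 0.209 CPM in the first library and 0 in the second. A further 7.91% occur in reverse in other genes, foremost the antisense gene *Gm16140*, which shares 896 exonic bases with *Meis1* and is not among the genes listed, so *Meis1* is uncertain by these reads if strand was not used.

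Of 7 TALE partner and related genes, 6 were at 1 CPM or more in both libraries, against 50.3% of all genes. *Pbx4* was listed at 0. *Pbx2* was at 20 and 23.3 CPM and *Pknox1* at 12.9 and 15.8 CPM. Per kilobase of exons, *Pbx2* exceeded *Meis2* 3.17-fold and 4.05-fold, and per kilobase of the longest coding transcript 1.16-fold and 1.49-fold. *Meis3*, the remaining paralog, had 9.2 and 8.94 CPM. Its order with *Meis2* depended on the length used, since *Meis3* was at 1.67 and 1.78 times the level of *Meis2* per kilobase of exons and at 0.889 and 0.949 times that level per kilobase of the longest coding transcript.

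The mesenchymal genes *Prrx1*, *Prrx2*, *Twist1* and *Twist2* were all higher in the second library, as was *Shox2* above. *Prrx2*, a homeobox gene at bases 30834972 to 30881251 of chromosome 2, was at 12.7 CPM in the first library and 30 CPM in the second. Its paralog *Prrx1*, at bases 163245119 to 163313710 of chromosome 1, had 3.47 and 8.37 CPM. In CPM, the fold between the libraries was 2.36 for *Prrx2* and 2.42 for *Prrx1*. Their ratio hardly moved, since *Prrx2* exceeded *Prrx1* per kilobase 20.7-fold and 20.2-fold, with a log2 ratio of 4.36 ± 0.03 (SD, n = 2).

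*Twist1*, which encodes a bHLH repressor of skeletal differentiation and spans bases 33957671 to 33959829 of chromosome 12, was at 5.15 CPM in the first library and 12.1 CPM in the second, or 223 and 508 reads. *Twist2* (bases 91801461 to 91848028 of chromosome 1) had 0.208 and 0.819 CPM, about 9 and 35 reads. For *Twist2* the counting intervals of the libraries, 4.12 to 17.1 and 24.4 to 48.7 reads, do not overlap. Per kilobase, *Twist1* exceeded *Twist2* 48.3-fold and 28.7-fold. An antisense gene, *Gm29100*, covers 45.7% of the 50-base sequences of *Twist2* in reverse and is not among the genes listed, so the few reads of *Twist2* are uncertain if strand was not used.

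The windows before the starts of the *Twist* genes are shown because these paralogs differ more in level per kilobase than *Prrx1* and *Prrx2* or *Meis1* and *Meis2*. That of *Twist1* lies at chr12:33957421-33957670 and that of *Twist2* at chr1:91801211-91801460, both on the plus strand.
Twist1: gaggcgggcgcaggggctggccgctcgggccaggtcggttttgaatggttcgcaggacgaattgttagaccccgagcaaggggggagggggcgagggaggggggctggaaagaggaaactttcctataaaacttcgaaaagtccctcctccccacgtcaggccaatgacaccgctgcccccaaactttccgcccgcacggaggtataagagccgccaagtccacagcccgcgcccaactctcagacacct
Twist2: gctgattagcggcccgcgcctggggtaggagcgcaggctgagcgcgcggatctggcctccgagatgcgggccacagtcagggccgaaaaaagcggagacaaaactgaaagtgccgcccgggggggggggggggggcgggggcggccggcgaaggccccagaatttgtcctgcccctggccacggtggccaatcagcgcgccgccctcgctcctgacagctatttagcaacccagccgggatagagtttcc
Neither window holds an E-box or TAATCC. Both are rich in G and C bases, at 62.4% for *Twist1* and 68.8% for *Twist2*, against a median of 52.4% over all windows, with 18 and 23 CpG dinucleotides against a median of 6. RefSeq windows were found for 8 of the 10 genes, the exceptions being *Pitx1* and *Tbx5*. Of the 8, 2 held an E-box (*Tbx4* and *Meis1*), while 66.2% of the windows of all genes did.

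TWIST proteins work as dimers with E proteins and compete with HAND and ID proteins for them. Of 9 such genes, 8 were at 1 CPM or more in both libraries, against 50.3% of all genes, and *Hand1* was listed at 0. The E protein genes *Tcf4* and *Tcf12* had 111 and 88.4 CPM and 54.4 and 57.8 CPM. *Id1*, which encodes an inhibitor of bHLH dimers, had 46.5 and 114 CPM. Per kilobase, *Id1* exceeded *Twist1* 12.7-fold and 13.3-fold, with a log2 ratio of 3.70 ± 0.05 (SD, n = 2). *Tcf12* and *Twist1* did not differ beyond their spread per kilobase of exons, at a log2 ratio of -0.42 ± 0.81 (SD, n = 2), but per kilobase of the longest coding transcript *Tcf12* was higher, at 0.88 ± 0.81. *Runx2*, which encodes an osteoblast and hypertrophy factor whose protein TWIST1 is known to inhibit, was at 16.2 and 39.6 CPM. In CPM it exceeded *Twist1* 3.14-fold and 3.29-fold. Per kilobase of exons, the log2 ratio of *Runx2* to *Twist1* was -0.76 ± 0.05 (SD, n = 2). Per kilobase of the longest coding transcript it was -0.305 ± 0.046, so its size depends on the length used. Of the chondrogenic SOX genes, *Sox9* had 252 and 279 CPM, *Sox6* 52.3 and 50 CPM and *Sox5* 38.3 and 52.4 CPM.

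Per kilobase of annotated exons, the order of the 9 detected genes by their mean log2 level was *Shox2*, *Prrx2*, *Twist1*, *Pitx1*, *Meis2*, *Meis1*, *Prrx1*, *Twist2* and *Tbx4*. Neighbours in that order were compared by their log2 ratio in each library. The ratio of *Prrx2* to *Twist1* was larger than its spread, as were those of *Pitx1* to *Meis2*, *Meis2* to *Meis1* and *Prrx1* to *Twist2*. The other 4 neighbouring pairs did not differ beyond their spread, and *Twist1* and *Pitx1*, *Meis1* and *Prrx1*, and *Twist2* and *Tbx4* changed places between the libraries. When length was taken from the longest coding transcript, *Meis2* moved from place 5 to place 3, since its exons cover 12043 bases and that transcript 3718, *Twist1* moved from place 3 to place 5, and *Shox2* and *Prrx2* as well as *Meis1* and *Prrx1* changed places. The log2 ratio of *Pitx1* to *Meis2* was 1.48 ± 0.04 (SD, n = 2) per kilobase of exons and -0.10 ± 0.04 with that other length, so their order rests on the length chosen.

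**Figure D3:**
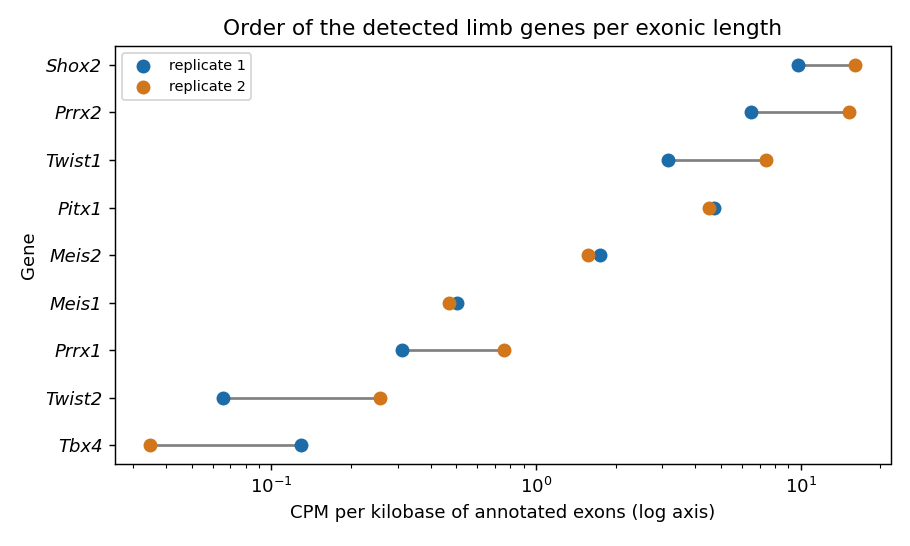
CPM per kilobase of annotated exons on a log axis for the 9 detected genes, ordered by mean log2 level, with a line joining replicate 1 and replicate 2. *Pitx1*, *Meis1* and *Meis2* have nearly equal values in both libraries, while *Prrx1*, *Prrx2*, *Twist1* and *Twist2* lie to the right in replicate 2 and *Tbx4* lies to the left.

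The spread between the libraries was set against that of all genes. For each of 12631 genes whose mean reached 1 CPM, a log2 ratio of the second library over the first was taken on the log2(CPM + 0.1) scale, which understates the change of low genes. Its median over these genes, 0.30, was subtracted. After that, 13.5% of these genes differed more than 2-fold (7.43% higher and 6.06% lower in the second library), and the SD of the log2 ratios was 0.83. The filter kept 7 of the 10 genes, and 0 of the 7 passed 2-fold. *Prrx1* (0.94), *Prrx2* (0.93) and *Twist1* (0.91) lay just under that line, with ratios at percentiles 91.9, 91.7 and 91.5 of all these genes, and *Shox2* was at 0.42. *Pitx1* (-0.38), *Meis1* (-0.40) and *Meis2* (-0.44) lay below the median of all genes. Without the subtraction, *Prrx1*, *Prrx2* and *Twist1* passed 2-fold, as did 11.4% of these genes upwards (3.71% downwards), so the count of 0 rests on the centring. Without the filter and with centring, *Twist2* passed 2-fold upwards, as did 9.95% of 20186 genes above 0, and *Tbx4* downwards, as did 11.8%.

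**Figure D4:**
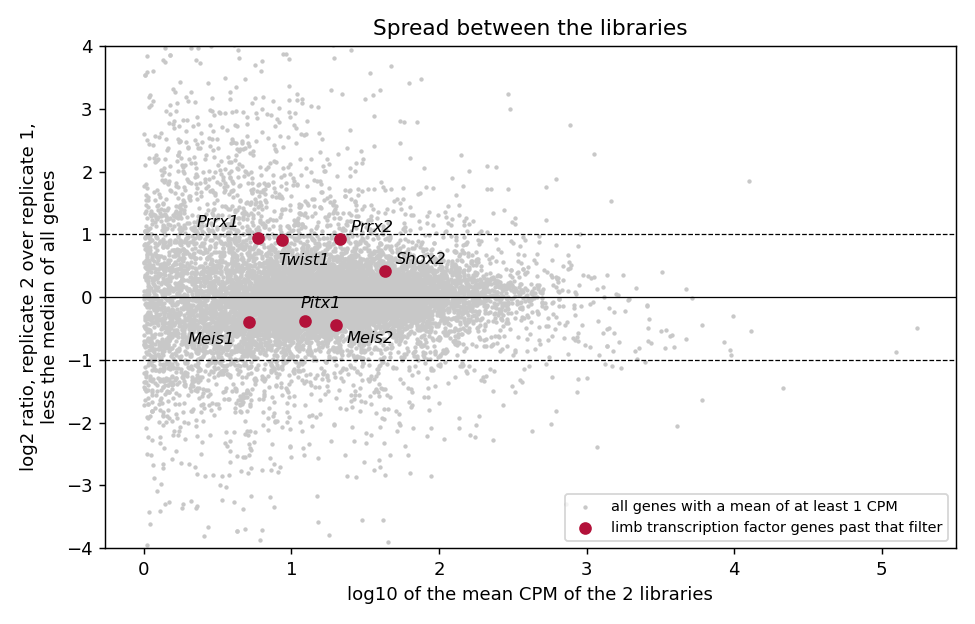
Log2 ratio of replicate 2 to replicate 1, less the median of all genes, against log10 of the mean CPM, for 12631 genes (grey) and the 7 limb genes past the same filter (red). The dashed lines mark 2-fold, 72 genes lie beyond the vertical limits of 4, and *Prrx1*, *Prrx2* and *Twist1* sit just under the upper line.

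Markers of cell types also differed between the libraries. Of the 8 chondrocyte markers, 2 were more than 2-fold lower in the second library after centring, against 6.06% of all genes past the filter. They were *Matn3*, at 741 and 53.1 CPM, and *Col9a1*, at 1880 and 1090 CPM. Without centring, *Col9a1* had a log2 ratio of -0.791 and did not pass 2-fold. The median centred log2 ratio of the list was -0.77. All 6 osteoblast markers were at or above the floor in both libraries, as were 68.5% of all genes listed. Of these markers, 5 passed the filter, with a median centred log2 ratio of 1.44. After centring, 3 of the 5 were more than 2-fold higher in the second library, against 7.43% of all genes past the filter. The summed level of the 6 was 21 CPM in the first library and 92.3 CPM in the second, of which *Dmp1* had 0.116 and 40.4 CPM. The 10 fibroblast markers summed to 6050 and 4290 CPM, of which *Col1a2* had 2710 and 2620 CPM. At or above the floor in both libraries were 8 of the 10, against 68.5% of all genes listed, and *Pi16* was listed at 0 in both. The filter kept 7, with a median centred log2 ratio of -1.04. After centring, 4 of the 7 were more than 2-fold lower in the second library, against 6.06% of all genes. Of these 4, *Col1a1* (-0.999) and *Postn* (-0.738) did not pass 2-fold without centring. The 5 tendon and ligament markers summed to 3510 and 2980 CPM, nearly all of it from *Fmod* (3460 and 2930 CPM). *Scx* had 35.3 and 30.9 CPM and *Mkx* 15.2 and 16.4 CPM, *Thbs4* was under the floor and *Tnmd* was at 0. The 5 haematopoietic markers summed to 2.73 and 2.55 CPM, nearly all of it from *Cd68* (2.56 and 2.4 CPM), with *Adgre1* at 0. The 4 listed skeletal muscle markers summed to 0.261 and 0.864 CPM, of which *Acta1* had 0.122 and 0.864 CPM, with *Myog* at 0. The part of these markers in the higher *Prrx* and *Twist* levels of the second library was not tested.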

How the data were processed

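RNA-sequencing of 2 libraries of Sox9GFPHi chondrospheres was used. The authors aligned 50-base single-end reads of stranded poly(A) libraries to GRCm38 with GENCODE M25 by STAR 2.7.3a, quantified genes with Partek E/M in Partek Flow 10.0.21.0801 and deposited CPM (counts per 1000000 reads), to which an offset of 0.0001 was added. The offset was subtracted here. Low values were whole multiples of the value of 1 read in 66.0% (first library) and 64.7% (second library) of genes under 50 reads, so reads were not recovered for all genes and no count model was fitted.

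From the CPM, means, SDs, log2 ratios within and between libraries (pseudocount 0.1 CPM, filter of a mean of 1 CPM) and exact Poisson 95% intervals were computed. As both libraries are of 1 condition, nothing was tested between groups. Lengths and positions came from GENCODE M21 on GRCm38, and windows from RefSeq on GRCm38.p6. A difference between genes was called larger than its spread where its mean over the libraries exceeded its SD.

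The genes and lists were chosen with earlier results of these data known. The rule for named genes takes the 10 genes, the 3 highest genes and those under the floor in each of 9 lists of partners, paralogs and limb regulators (66 genes), and genes whose exons overlap one of the 10. Other genes named (*Meis3*, *Runx2*, *Lmx1b*, *Isl1*, *Sall1*, *Pknox2*, *Tbx6* and the cell type markers) were chosen after their values were seen. Some genes that the rule takes are not reported here. As 2 libraries of 1 condition give no pattern, no gene was named for a similar one. The filter and ratios were run on simulated data with planted changes and counting error only. Those data lack the wider spread between the real libraries, so the run checks the calculation and not its error rate here. Alternatives covered scaling, floor, length, pseudocount, filter, centring and each library left out. Software was Python 3.11.15 with scipy 1.17.1, numpy 2.4.6, matplotlib 3.10.9 and pandas 2.3.3.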

Additional observations from a re-analysis of the deposited data

How the results depend on the processing

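With 2 libraries, leaving out either one moves a mean by less than 1 SD by arithmetic and shows no stability. The single libraries gave 11.94 to 12.57 CPM for *Pitx1*, 0.1186 CPM (without the first) to 0.439 CPM (without the second) for *Tbx4*, log2 ratios to *Tbx5* of 7.39 to 7.503 and 0.74 to 2.66, and 0 for *Tbx5*. No paired analysis was possible because the libraries are of 1 group.

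When the total excluded the 10 highest genes, *Pitx1* had a mean of 20.23 CPM, as a smaller total requires. The log2 ratio of *Pitx1* to the limit of *Tbx5*, 7.45, became 8.26 per exonic length, 8.13 per longest coding transcript, 9.03 with *Tbx5* at 1 read and 5.71 at 10 reads. That of *Tbx4*, 1.70, became 3.29 at 1 read and reversed to -0.037 at 10 reads, so it depends on the limit set for a value of 0.

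Of the 10 genes, 4 reached 10 CPM in both libraries in place of 7 at 1 CPM. The count past 2-fold between libraries, 0, was 3 without centring (*Prrx1*, *Prrx2* and *Twist1*) and 2 without the filter (*Twist2* higher and *Tbx4* lower in the second library, directions in which 9.95% and 11.8% of all genes above 0 passed). At 10 reads in place of 3, 7 of the 10 genes and not 9 were above the floor in both libraries, *Twist2* and *Tbx4* being under it. Lengths of the longest coding transcripts reversed the log2 ratios per kilobase of *Meis3* to *Meis2* (0.786 to -0.122) and *Pitx1* to *Meis2* (1.48 to -0.103). The alternatives for single genes other than *Pitx1*, *Tbx4* and *Tbx5*, for ratios between libraries, and for ratios between genes other than to *Tbx5*, were chosen after seeing the data.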

Other observations

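Other regulators of the limb bud showed wide differences in level. Of 16 limb homeobox genes, 15 were listed, 10 were at or above 3 reads in both libraries and 6 at 1 CPM or more. Among all genes listed, 68.5% and 50.3% reached these levels in both libraries. *Irx3* and *Irx5*, which act in proximal limb patterning, had 13.5 and 17.2 CPM and 12.9 and 13.6 CPM. *Msx2*, a target of BMP signals, had 4.11 and 15.8 CPM. *Lmx1b*, the determinant of dorsal limb identity, had 0.901 and 0.0949 CPM, about 39 and 4 reads, and *Alx4* had 0.97 and 0.0237 CPM, about 42 reads and 1 read. *En1*, a gene of ventral limb ectoderm, was listed at 0 in both, and *Alx1*, *Lhx9* and *Dlx3* were under 3 reads in 1 library. *Isl1*, which acts upstream of hindlimb outgrowth, had 0.578 and 0.735 CPM.

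Of 10 limb signalling genes, 7 were listed and 3 were at 1 CPM or more in both libraries, against 50.3% of all genes listed. *Fgf10*, the limb bud growth factor downstream of TBX4 and TBX5, was at 0 in the first library and 0.237 CPM, about 10 reads, in the second. *Bmp4* was at 0.0231 and 0.546 CPM. *Gli3* had 26.9 and 52 CPM, *Grem1* 57.3 and 25.5 CPM and *Wnt5a* 2.75 and 34.5 CPM. Over the 66 genes of the partner, paralog and regulator lists, 36 passed the filter of 1 CPM. After centring, *Tbx3*, *Msx2*, *Wnt5a* and *Sall1* were more than 2-fold higher in the second library (4 of 36, against 7.43% of all genes), and *Pknox2*, *Tbx6* and *Grem1* were more than 2-fold lower (3 of 36, against 6.06%). The median log2 ratio of the 36 was 0.25, where the median of all genes is 0.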
